A study of Mus musculus with 25 samples.

Results

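The genes described here are 8 markers of B cells and plasma cells, found by their symbols among the 55450 rows of a bulk RNA-seq count table. Ms4a1, Cd79a, Cd79b and Pax5 mark B cells, and Igkc, Jchain and Mzb1 were taken as the plasma cell genes. Ighm, which both cell types make, was kept apart, although B cells make Igkc too. All 8 passed the filter on low counts that left 18031 genes for testing, in a fit over all groups together. They were followed across 25 melanomas, each grown in its own mouse from the line B2905 (also called M4), a mouse melanoma line implanted in C57BL/6 mice.

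Antibody was given at 10 mg/kg over 2 weeks from the time tumours averaged 75 mm3. Of the 40 implanted mice, 30 received anti-CTLA-4, an antibody against a receptor that restrains T cells, and 20 of their tumours were sequenced. They comprised 8 responders, which shrank, 6 stable tumours, which kept their size, and 6 non-responders, which grew, as judged 10 to 11 days after the last dose. The 5 controls came from mice given an IgG2b antibody of matched isotype; tumours of untreated mice were not analysed here. All tumours share 1 cell line and 1 mouse strain. The labels do not give the sex or age of the mice, the day of harvest or the cell makeup of the samples.

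B cells carry on their surface an antibody that signals through the paired chains CD79A and CD79B. After activation some become plasma cells, which switch off the B cell programme held by PAX5, lose CD20 (the product of Ms4a1) and secrete large amounts of antibody. A plasma cell holds far more immunoglobulin RNA than a B cell, and the joining chain and the endoplasmic reticulum protein MZB1 serve antibody assembly and secretion. In bulk tumour RNA, fewer cells of a type and less RNA per cell cannot be told apart.

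The members lie on different chromosomes, and Ighm and Igkc are constant-region genes of the antibody heavy and kappa light chain loci. In GRCm38 with the GENCODE M21 annotation, Ms4a1 (ENSMUSG00000024673.9) spans chromosome 19 from 11249675 to 11266241 on the minus strand and Cd79a (ENSMUSG00000003379.7) chromosome 7 from 24897381 to 24902197 on the plus strand. Cd79b (ENSMUSG00000040592.11) spans chromosome 11 from 106311341 to 106314762 and Pax5 (ENSMUSG00000014030.15) chromosome 4 from 44524757 to 44710487, both on the minus strand. Ighm (ENSMUSG00000076617.9) spans chromosome 12 from 113418558 to 113422730 on the minus strand and Igkc (ENSMUSG00000076609.2) chromosome 6 from 70726435 to 70726966 on the plus strand. Jchain (ENSMUSG00000067149.6) spans chromosome 5 from 88519809 to 88527891 on the minus strand, and Mzb1 is ENSMUSG00000024353.5.

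Promoters of 3 of the 8 members were matched in RefSeq (GRCm38.p6), those of Cd79a, Pax5 and Jchain. The sequence upstream of the start is shown for 1 B cell gene and 1 plasma cell gene, as the 2 sets of genes are compared in each tumour. Capitals mark CAGGTG, an E-box of the kind bound by E2A, a B cell factor. The Cd79a window is chr7:24897247-24897380 (plus strand) and the Jchain window chr5:88527898-88528147 (minus strand).

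Cd79a: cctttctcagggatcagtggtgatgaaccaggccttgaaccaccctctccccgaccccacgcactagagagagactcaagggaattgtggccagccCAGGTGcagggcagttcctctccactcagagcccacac

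Jchain: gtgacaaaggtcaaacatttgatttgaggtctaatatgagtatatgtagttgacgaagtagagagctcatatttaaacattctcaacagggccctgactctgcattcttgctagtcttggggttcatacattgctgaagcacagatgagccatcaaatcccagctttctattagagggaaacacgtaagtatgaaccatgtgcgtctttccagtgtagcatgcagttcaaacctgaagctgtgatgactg

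The search covered 3 motifs on both strands, namely CAGGTG, the octamer ATGCAAAT and the EBF-type motif CCCNNGGG, of which none contains another. The Cd79a window held 1 CAGGTG and neither other motif. The Jchain window held none of the 3, with 1 CAGGTG elsewhere in its 300 bases. The promoter of Pax5, the other B cell gene matched, is not shown and held none of the 3 motifs in its window or its 300 bases. Over all 32544 RefSeq promoters of 300 bases, 20.3% held CAGGTG, 13.7% CCCNNGGG and 1.75% ATGCAAAT, and a match is a description of the letters only.

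The libraries held 8.76 to 34.3 M counts. Protein-coding genes took 82.9% to 89.2% of counts in controls, non-responders and stable tumours, but 23.8% to 87.0% in responders, with responder 1 lowest and responder 4 next at 54.2%. The library numbers in the labels ran by group, so processing order and group cannot be told apart. Levels are given as CPM, counts per M counts of a library scaled by TMM (trimmed mean of M values), and describe 1 gene across tumours, not 1 gene against another. Fold changes are log2 values with their standard error (SE) from edgeR's quasi-likelihood test, and a gene is called where its Benjamini-Hochberg adjusted p over all tested genes is under 0.05.

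The plasma cell genes were low in controls and highest in stable tumours, with responders split between high and low tumours. Igkc, the constant part of the kappa light chain, stood at 2.80, 2.80, 25.9, 9.69 and 5.69 CPM in controls 1 to 5. The lowest, median and highest values were 29.6, 45.0 and 96.5 CPM in non-responders, 60.9, 174 and 421 CPM in stable tumours, and 7.26, 93.9 and 342 CPM in responders. Every non-responder and every stable tumour lay above every control, and 5 of 6 stable tumours lay above every non-responder. Responders 2, 5, 6 and 7 held 342, 220, 158 and 184 CPM, whereas responders 1, 3, 4 and 8 held 20.5, 9.77, 7.26 and 30.1 CPM. The first set lay above every non-responder, and responders 1, 3 and 4 lay within the range of the controls. Of these, responders 1 and 3 lay above every control but control 3.

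Igkc was higher than in controls by 4.43 (SE 0.94, adjusted p = 0.000568) in stable tumours and by 3.70 (SE 0.89, adjusted p = 0.001) in responders on the log2 scale. Without control 3, the control richest in Igkc, these rose to 5.26 and 4.52. The non-responder difference of 2.49 (SE 0.86) had an adjusted p of 0.0555 and was not called, although the groups did not overlap. Leaving out any 1 of 6 tumours brought it under the threshold (adjusted p 0.024 to 0.0474): control 3 (log2 difference 3.32), non-responder 3, or responder 1, 2, 3 or 4. DESeq2 (adjusted p = 0.0148), a fit restricted to both groups (0.0355), the stricter filter (0.0449), the protein-coding share covariate (0.0349), the fit of fewer gene types (0.0488) and the fit without responders 1 and 4 (0.0271) each called it as well, so the missing call depended on the setting.

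Jchain encodes the joining chain that links secreted IgM and IgA units. Controls 1 to 5 held 1.00, 1.47, 6.81, 2.03 and 2.23 CPM. The lowest, median and highest values were 10.2, 18.3 and 24.8 CPM in non-responders, 22.6, 55.7 and 192 CPM in stable tumours, and 3.79, 29.6 and 78.2 CPM in responders. As for Igkc, neither non-responders nor stable tumours overlapped controls. Responders 1, 3 and 4 held 3.79, 3.87 and 4.05 CPM, below control 3 but above controls 1, 2, 4 and 5. Jchain was higher than in controls by 4.83 in stable tumours (SE 0.88, adjusted p = 0.000116), by 3.72 in responders (SE 0.82, adjusted p = 0.000438) and by 2.71 in non-responders (SE 0.80, adjusted p = 0.0257). Without control 3 these differences were 5.51, 4.40 and 3.40. The non-responder call was lost without any 1 of controls 1, 2, 4 and 5 or non-responders 4 and 5 (adjusted p 0.0503 to 0.0787).

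Mzb1, an endoplasmic reticulum protein of antibody-secreting cells, had few counts. Controls 1 to 5 held 0.0667, 0.147, 0.352, 0.219 and 0 CPM. The range was 0 to 1.26 CPM in non-responders (median 0.693), 0.684 to 5.51 CPM in stable tumours (median 1.99) and 0 to 7.41 CPM in responders (median 1.74). No count fell in control 5, non-responder 3, responder 1 or responder 4. With 3 counts as the limit, these zeros allowed levels up to 0.155, 0.129, 0.67 and 0.419 CPM, so a low level in responder 1 was not measurable. Stable tumours lay above every control, and responder 2 was the highest tumour of all. Mzb1 was higher than in controls by 3.91 in stable tumours (SE 1.07, adjusted p = 0.00477) and by 3.76 in responders (SE 1.05, adjusted p = 0.00316), while in non-responders the difference of 2.04 had an adjusted p of 0.194.

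**Figure D1:**
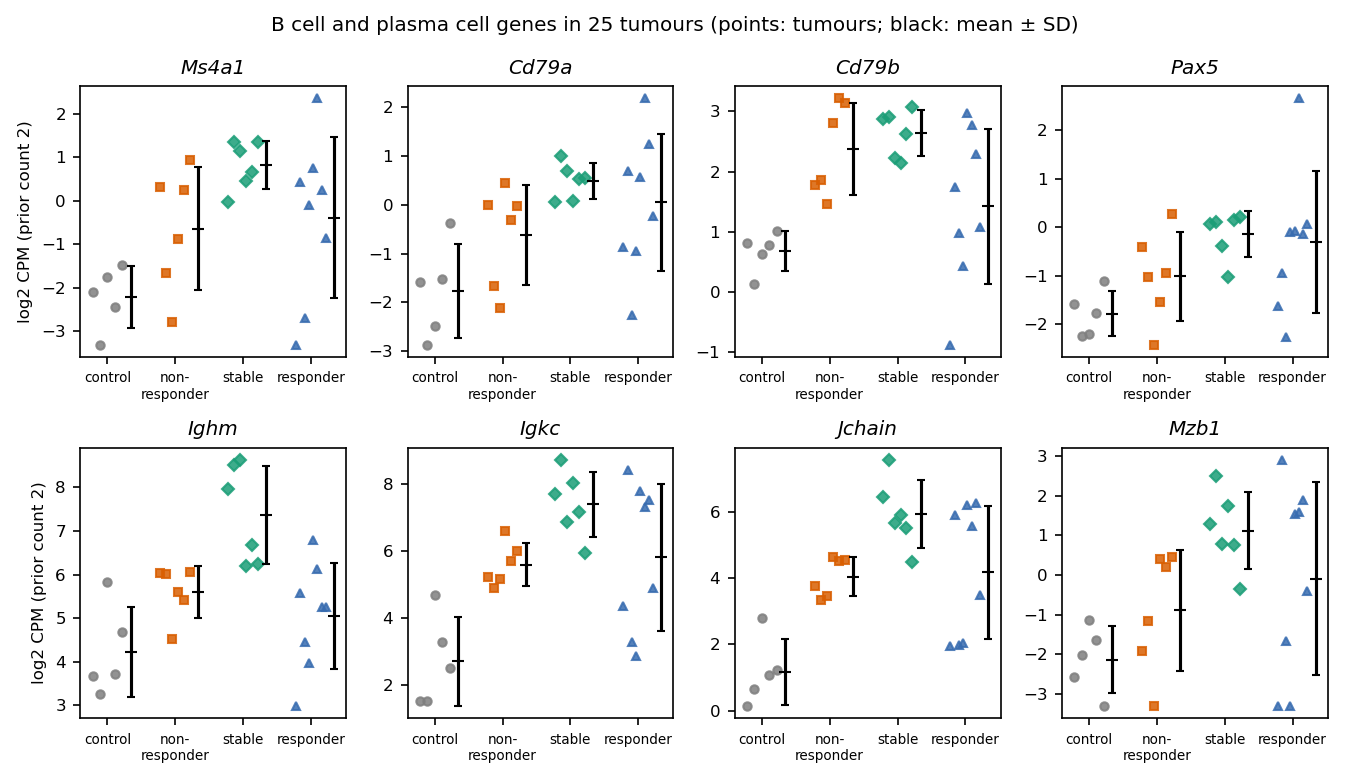
Level of each of the 8 genes by group, 1 panel a gene, as log2 CPM with a prior count of 2 (y axis); points are tumours and black marks are the mean ± SD. Stable tumours sit above all 5 controls in each panel, whereas responders spread over both ranges, with Igkc from 7.26 to 342 CPM.

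Ighm, the constant part of the IgM heavy chain, followed another order, with responders close to non-responders. Controls 1 to 5 held 12.7, 9.47, 56.8, 13.0 and 25.5 CPM. The lowest, median and highest values were 22.8, 56.5 and 66.7 CPM in non-responders, 72.8, 175 and 398 CPM in stable tumours, and 7.81, 38.0 and 112 CPM in responders. All 6 stable tumours lay above every non-responder and every control, and responder 5 was the single responder of 8 to reach the stable range. Among the members, Ighm alone separated stable tumours from non-responders without overlap (1 of 8), as did 2.07% of all tested genes in that direction.

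The stable tumours exceeded controls in Ighm by 3.17 (SE 0.64, adjusted p = 0.000333), or 3.80 without control 3. They exceeded non-responders by 2.03 (SE 0.57, adjusted p = 0.02). The responder minus stable difference was -2.26 (SE 0.52, adjusted p = 0.0041). Responders exceeded controls by 0.91 without passing the test (adjusted p = 0.159). With control 3 left out that last difference was 1.54 and passed (adjusted p = 0.0259). It passed too with the protein-coding share of counts as a covariate (1.98, adjusted p = 0.00945), a fit in which all 8 members were called higher in responders than in controls and 45.3% of all genes were called. The same covariate gave a responder minus stable difference of -1.22 (adjusted p = 0.387), and 0 of all 18031 genes were called in that comparison, with 2296 under an unadjusted p of 0.05. The protein-coding share varied widely only in responders (23.8% to 87.0%), so a fit with it cannot fully tell the share from the responder group.

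The B cell genes had few counts. Their fitted differences from controls were 2.03 to 3.72 in stable tumours and 1.22 to 3.27 in responders. Each was smaller than those of Igkc and Jchain in the same group. In non-responders this did not hold for Ms4a1, whose difference of 2.55 lay above that of Igkc (2.49). The contrast between B cell and plasma cell genes was not tested. Ms4a1 encodes CD20, a surface protein of mature B cells. Controls 1 to 5 held 0.133, 0, 0.196, 0.0822 and 0.259 CPM, which is 17 counts in all. The lowest, median and highest values were 0.043, 0.763 and 1.80 CPM in non-responders, 0.883, 1.80 and 2.44 CPM in stable tumours, and 0, 0.961 and 5.00 CPM in responders. Stable tumours lay above every control, and responder 6 stood far above the other responders. The zeros in control 2 and responder 1 allowed up to 0.111 and 0.67 CPM.

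Ms4a1 was higher than in controls by 3.72 in stable tumours (SE 0.93, adjusted p = 0.00222) and by 3.27 in responders (SE 0.90, adjusted p = 0.00287). Without responder 6 the latter was 2.54 (adjusted p = 0.00917). In non-responders the difference of 2.55 had an adjusted p of 0.062, and passed with non-responder 2, non-responder 3, responder 3 or responder 6 left out (adjusted p 0.0221 to 0.0469).

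Cd79a and Cd79b, the signalling chains of the B cell receptor, are expressed together on B cells. Cd79a stood at 0.233, 0.0368, 0.0782, 0.247 and 0.673 CPM in controls 1 to 5, with ranges of 0.129 to 1.25 CPM in non-responders (median 0.793), 0.941 to 1.90 CPM in stable tumours (median 1.35) and 0.107 to 4.44 CPM in responders (median 1.07). Stable tumours lay above every control, as did 5 of 8 responders. It was higher than in controls by 2.41 in stable tumours (SE 0.73, adjusted p = 0.00944) and by 2.51 in responders (SE 0.71, adjusted p = 0.00366). Without control 5 these were 3.08 and 3.17. The non-responder difference of 1.44 had an adjusted p of 0.19.

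Cd79b stood at 1.67, 0.995, 1.45, 1.62 and 1.91 CPM in controls 1 to 5, with ranges of 2.66 to 9.19 CPM in non-responders (median 5.21), 4.31 to 8.34 CPM in stable tumours (median 6.66) and 0.446 to 7.73 CPM in responders (median 2.63). All non-responders and all stable tumours exceeded every control, and 4 of 8 responders lay below every non-responder. Among the 8 members, Cd79b had the largest non-responder minus control difference relative to its error, 1.91 (SE 0.48, adjusted p = 0.00905). The stable minus control difference was 2.04 (SE 0.48, adjusted p = 0.00137) and that of responders 1.22 (SE 0.45, adjusted p = 0.0213). The responder call was lost without control 2 or without responder 5 (adjusted p 0.0572 and 0.0549). It was also lost with only the groups compared (0.0702), with no low-count filter (0.0565) and in the 3 limma fits of RPKM values (0.0773 to 0.1).

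Pax5, the transcription factor that maintains B cell identity, held 0.233, 0.111, 0.117, 0.192 and 0.362 CPM in controls 1 to 5. It ranged from 0.0859 to 1.11 CPM in non-responders (median 0.402), 0.392 to 1.06 CPM in stable tumours (median 0.958) and 0.107 to 6.23 CPM in responders (median 0.826). Responder 6 held 6.23 CPM and the next responder 0.952 CPM. Pax5 exceeded controls by 2.67 in responders (SE 0.74, adjusted p = 0.00302), or 1.59 without responder 6 (adjusted p = 0.0138). In stable tumours it exceeded controls by 2.03 (SE 0.75, adjusted p = 0.0316), and this call did not survive the removal of any 1 of controls 1 to 4 (adjusted p 0.0532 to 0.071). It was lost with no low-count filter as well (adjusted p = 0.0506). Limma on the RPKM table gave a Pax5 difference of 0.11 with a pseudocount of 1 (adjusted p = 0.57) and 0.76 with a pseudocount of 0.1 (adjusted p = 0.219). Counts and RPKM values of Pax5 did not always agree, with 7 counts but 0 RPKM in control 5.

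All 8 members lay higher in every stable tumour than in every control, as did 18.4% of all tested genes. In non-responders 3 members did so, Cd79b, Igkc and Jchain, against 2.67% of all tested genes. Counted over the 8 members, all 8 were called higher in stable tumours than in controls, where 41.8% of all tested genes were called and 22.2% were called higher. In responders against controls, 7 were called higher, all but Ighm, against 65.0% of all genes called and 36.1% called higher. In non-responders against controls, 2 were called higher, Cd79b and Jchain, against 13.9% called and 10.6% called higher. With the 3 anti-CTLA-4 groups weighted equally, all 8 were called higher than in controls, against 51.1% called and 27.7% called higher. The median log2 difference from controls over all tested genes was 0.03 for stable tumours, 0.16 for responders and 0.04 for non-responders, against 2.23, 2.59 and 1.67 for the 4 B cell members and 4.43, 3.72 and 2.49 for the 3 plasma cell members. These comparisons share the same 5 controls.

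Between the treated groups fewer members differed. Stable tumours exceeded non-responders in 2 members, Ighm and Jchain, against 14.9% of all genes called and 7.08% called higher. The Jchain difference was 2.12 (SE 0.71, adjusted p = 0.0475). The call held by a narrow margin: leaving out any of 15 tumours ended it, with log2 differences of 1.60 to 2.24 and adjusted p of 0.0501 to 0.146. Those 15 were controls 1, 2, 4 and 5, non-responders 1 to 5, stable tumours 1 to 5 and responder 6. The Ighm call was lost without non-responder 3, stable tumour 2 or stable tumour 3 (adjusted p 0.0555, 0.0501 and 0.0604). Igkc was higher by 1.94 (SE 0.78) with an adjusted p of 0.0976, and was called by DESeq2 (adjusted p = 0.0481) and with only the groups compared (adjusted p = 0.023). With no low-count filter neither Ighm (adjusted p = 0.0509) nor Jchain (adjusted p = 0.108) was called.

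Responders were lower than stable tumours in 1 member, Ighm, against 38.2% of all genes called and 17.8% called lower. The other 7 had log2 differences from -1.10 (Jchain, adjusted p = 0.171) to 0.64 (Pax5, adjusted p = 0.427).

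Responders differed from non-responders in 0 of 8 members by edgeR's quasi-likelihood test, although 48.9% of all tested genes were called. Pax5 alone had an unadjusted p under 0.05 (log2 difference 1.44, SE 0.64, adjusted p = 0.0676), and DESeq2 called it (1 member of 8, adjusted p = 0.0451). Limma on the RPKM table called Cd79a higher in each of 3 settings, by 0.50 with a pseudocount of 1 (adjusted p = 0.0268, or 0.0343 with no filter) and more with a pseudocount of 0.1 (adjusted p = 0.0394). The fitted Cd79a difference in counts was 1.07 (SE 0.61, adjusted p = 0.149). Pax5 was called in edgeR without non-responder 6, responder 1 or responder 3 (adjusted p 0.0285, 0.0478 and 0.0294). Its difference ranged from 0.353 to 1.90 with 1 tumour left out, and responder 6 held 66 of the 128 Pax5 counts of all responders. Cd79b passed as lower without responder 5 (-0.96, adjusted p = 0.0436). Mzb1 had the largest fitted difference, 1.71 (SE 0.85, adjusted p = 0.0976), and Cd79b the lowest, -0.68 (SE 0.40, adjusted p = 0.162). Both groups overlapped in every member.

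**Figure D2:**
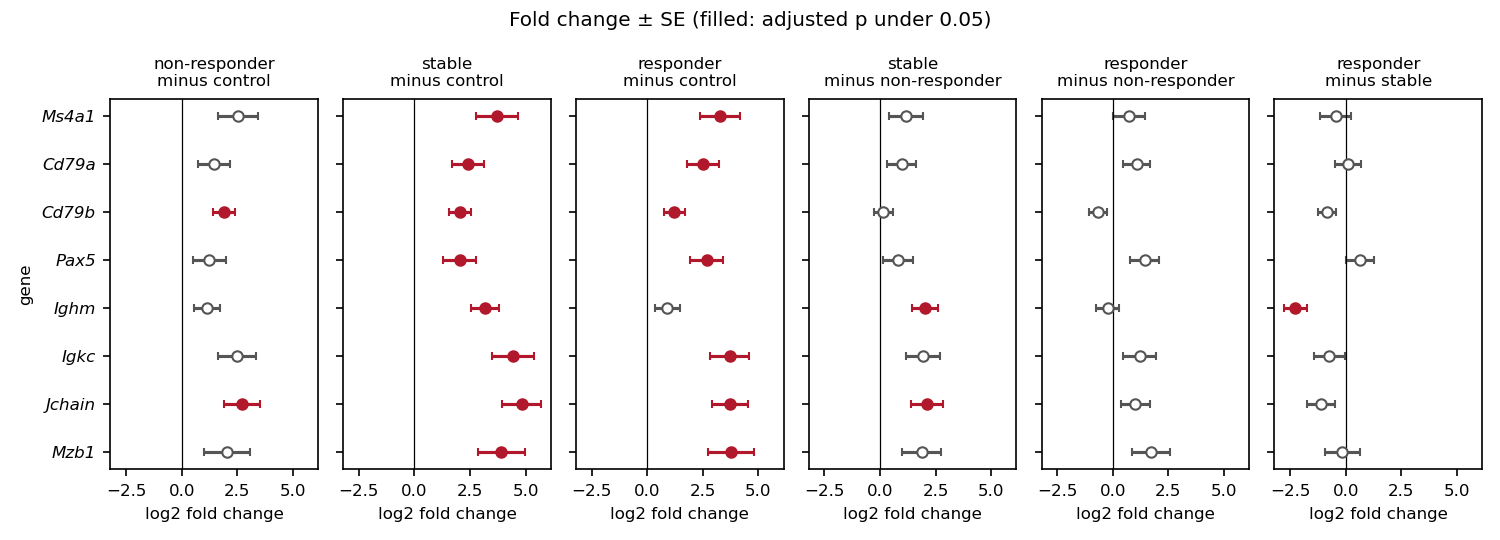
Log2 fold change of each of the 8 genes in the 6 pairwise comparisons (x axis, bars ± SE of the edgeR fit); filled points have an adjusted p under 0.05. All 8 are filled in stable minus control and none in responder minus non-responder.

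The balance of plasma cell against B cell genes was described in each tumour as the mean log2 CPM (prior count 2) of Igkc, Jchain and Mzb1 minus that of Ms4a1, Cd79a, Cd79b and Pax5. A larger value means more RNA of the plasma cell genes for a given level of the B cell genes. Part of the Igkc RNA can come from B cells, and zero has no meaning of its own because gene lengths differ. It was 1.86 ± 1.19 in controls (SD, n = 5) and 2.89 ± 0.59 in non-responders (SD, n = 6). It was 3.87 ± 1.08 in stable tumours (SD, n = 6) and 3.11 ± 1.42 in responders (SD, n = 8). Stable tumours ranged from 2.07 to 4.93 and controls from 0.63 to 3.57, so the groups overlapped. The SD within responders and within controls exceeded the difference between responders and each other treated group.

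Individual responders differed in kind as well as in level. Responder 2 had the second highest plasma cell mean of all 25 tumours, 5.75, with a B cell mean of 0.48 that ranked 11, and hence the largest balance, 5.27. Responder 6 had the highest B cell mean, 2.49, with a plasma cell mean of 4.83 that ranked 7 and a balance of 2.34. Responder 4 had a balance of 0.71, with a plasma cell mean of 0.54 near that of controls. That tumour had 0 counts of Mzb1, so this mean rests in part on the prior count. It had 6, 3, 9 and 6 counts of Ms4a1, Cd79a, Cd79b and Pax5. Responders 1 and 3 were near the bottom in both means (ranks 20 and 19 for plasma cell genes, 24 and 23 for B cell genes). Among stable tumours, number 2 ranked 1 for plasma cell and 2 for B cell genes, whereas number 4 ranked 4 and 13.

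**Figure D3:**
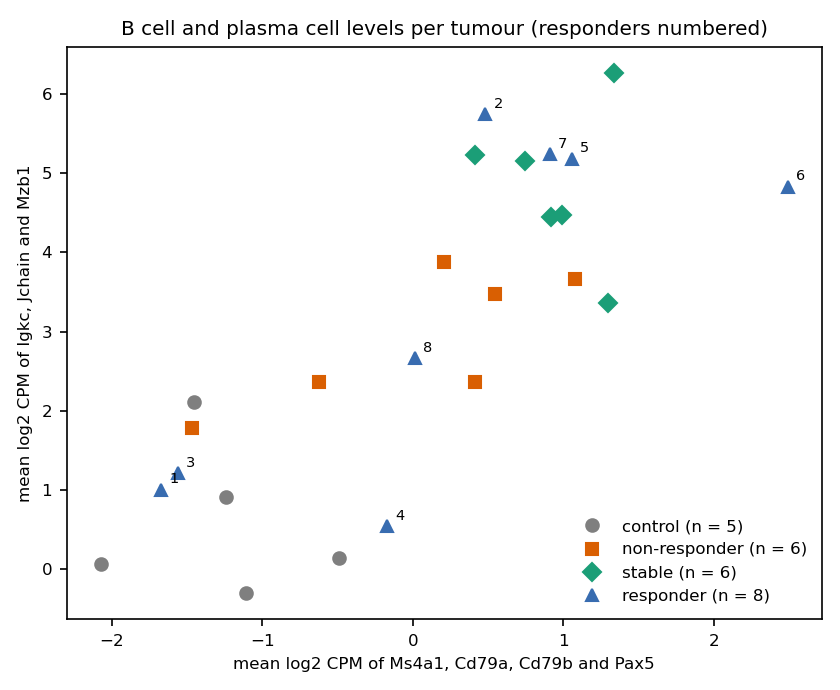
Mean log2 CPM of the 4 B cell genes (x axis) against that of the 3 plasma cell genes (y axis), 1 point a tumour coloured by group, with responders numbered. Responder 2 lies high on the y axis for its x value (5.75 at 0.48), and responder 6 lies farthest right (2.49).

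The 4 responders with low plasma cell genes were not uniform in library quality. Protein-coding shares were 23.8%, 74.3%, 54.2% and 67.3% in responders 1, 3, 4 and 8, and 72.7%, 87.0%, 70.3% and 62.0% in responders 2, 5, 6 and 7, so the shares of both sets overlapped. Responder 1 contributed 35 counts of Ighm and responder 4 a total of 262 heavy-chain counts. The part of library composition in these levels was not tested beyond the covariate and the fit without responders 1 and 4. In the fit without them, 7 members, all but Ighm, were called higher in responders than in controls, against 62.2% of all genes called. Ighm was again called lower than in stable tumours, against 22.4% of all genes called. Mzb1 was called higher than in non-responders (2.08, adjusted p = 0.0399), against 39.5% of all genes called.

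Within the members, the plasma cell genes rose and fell together across tumours. Over 25 tumours, Pearson's r was 0.979 between Igkc and Jchain, and 0.883 and 0.884 between each of these and Mzb1. After removing group means the 3 values were 0.953, 0.863 and 0.882. Among B cell genes r ran from 0.58 (Cd79b with Pax5) to 0.872 (Ms4a1 with Cd79a), and between the B cell and plasma cell genes from 0.529 to 0.793. Pax5 had the lowest values with plasma cell genes, 0.267 to 0.373 within groups. All pairs share libraries, depth and scaling.

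Immunoglobulin segments, pseudogenes and predicted genes (Gm or Rik symbols) were left out of the lists of most similar genes. Among the other tested genes outside the members, those most like the B cell mean were Pou2af1 (r = 0.906 over 25 tumours), Btla (0.895), Spib (0.89), St8sia4 (0.886) and Gimap6 (0.88). For the plasma cell mean they were Igha (0.914), Ighg1 (0.905), Pou2af1 (0.9), Fbln1 (0.896) and Ace (0.893). Pou2af1, a coactivator of immunoglobulin transcription in B lineage cells, was in both lists. Of the 55 tested immunoglobulin segments, 0 reached the fifth gene of either list.

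The classes of antibody heavy chain differed between tumours. Reads of the IgG subclasses can be split unevenly between near-identical constant genes, so shares of single subclasses are uncertain. Ighm made up 60.7 ± 15.1% of heavy-chain constant counts in controls (SD, n = 5) and 34.1 ± 16.2% in non-responders (SD, n = 6). Its share was 39.2 ± 24.4% in stable tumours (SD, n = 6) and 25.8 ± 19.5% in responders (SD, n = 8). The range was 39.4% to 78.2% in controls and 5.27% to 60.5% in responders, so the groups overlapped. In stable tumour 3, Ighm was 83.2% of 8566 counts (95% Wilson interval 82.4% to 84.0%), while in responder 2 it was 5.27% of 13071 counts (4.90% to 5.67%). These intervals cover counting error only.

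IgG1, a switched class, made up 2.06 ± 3.31% of heavy-chain counts in controls and 31.1 ± 20.2% in stable tumours, with 18.8 ± 15.4% in non-responders and 18.0 ± 19.6% in responders (SD). Responder 2 and stable tumour 4 had the largest Ighg1 shares, 55.4% and 59.9%. In responder 1, 68.8% of only 266 heavy-chain counts were Ighg2b. Responder 7 was led by Ighg2c (42.7%), as was responder 5 (41.1%). Igha, the class of mucosal antibody, lay between 4.21% and 40.5% in all tumours. On average, kappa took 90.0% of light-chain constant counts in the controls. Its mean share was 94.1% in stable tumours, 94.5% in responders and 90.8% in non-responders.

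**Figure D4:**
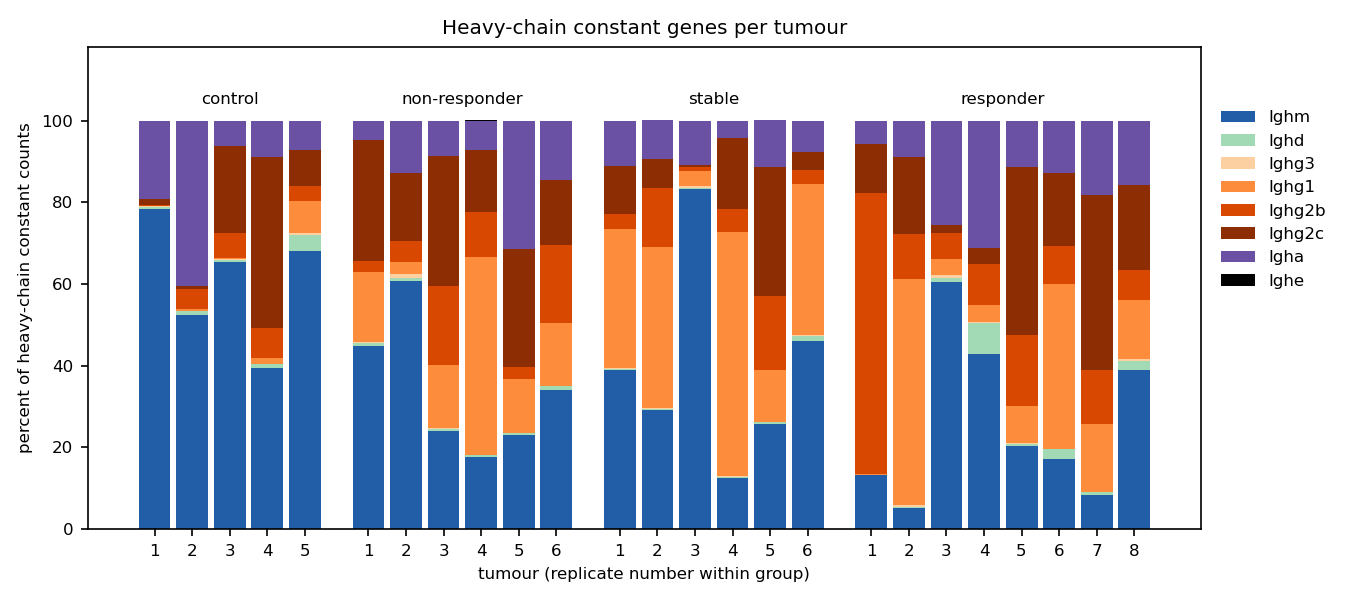
Share of each heavy-chain constant gene in all heavy-chain constant counts (y axis, percent) in each of the 25 tumours (x axis, ordered by group), as stacked bars. Ighm is the largest part of most control bars (60.7% on average) and a small part of responder 2 (5.27%).

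Most other immunoglobulin constant genes were also higher in treated tumours than in controls. Of 10 in the list, 9 were tested, and all 9 were higher in stable tumours than in controls, 8 in responders and 3 in non-responders. Ighg1 led, with a stable minus control difference of 8.18 (SE 1.81, adjusted p = 0.000855) on 84 counts in all controls together. Iglc2, a lambda light chain gene, was called in stable minus non-responder (2.49, SE 0.73, adjusted p = 0.0241). Iglc1, another, was lower in responders than in stable tumours (-2.17, SE 0.75, adjusted p = 0.0261). None of the 9 was called between responders and non-responders. Ighe was not tested and had no count in controls.

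Other B cell genes were tested in 16 of 17 cases. Of these, 16 were higher than in controls in responders, 14 in stable tumours and 9 in non-responders, with median log2 differences of 2.89, 2.21 and 1.54. Most of the summed level of the list came from Cd22, Cd72, Ebf1 and Cd180, and it did not follow the B cell members in each tumour. Responder 1 held 64.5 CPM of this list, above the 24.5 to 43.2 CPM of controls. Its 4 B cell members summed to 1.12 CPM, below the lowest control (1.14 CPM). Cd22 held at least 17.6 CPM in every responder. Cd22, an inhibitory receptor of B cells, was higher in stable tumours than in controls by 3.47 (SE 0.43, adjusted p = 1.58e-06) and was the only gene of the list called between stable tumours and non-responders (1.18, SE 0.36, adjusted p = 0.03). In responders against non-responders, 2 of the 16 were called, both higher, where 48.9% of all tested genes were called. Of those 2, Tnfrsf13c, which encodes the receptor for the survival factor BAFF, rose by 1.09 (SE 0.40, adjusted p = 0.0275). None of the 16 was called between responders and stable tumours.

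Genes of B cell receptor signalling, most of which other leukocytes also express, were all tested. All 14 were higher than in controls in stable tumours and 12 each in responders and in non-responders. Against non-responders, 9 were higher in stable tumours and 7 in responders, and 2 were lower in responders than in stable tumours.

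Other genes of the plasma cell programme went both ways. Of 10 tested of 11, 5 were higher and 3 lower in responders than in controls, 4 higher and 2 lower in stable tumours, and 1 each in non-responders. Against non-responders, responders were higher in Derl3, a protein degradation factor of the endoplasmic reticulum (2.29, SE 0.64, adjusted p = 0.00592), in Eaf2 (1.97, SE 0.58, adjusted p = 0.00817) and in Prdm1, the repressor that drives plasma cell differentiation (1.11, SE 0.30, adjusted p = 0.00434). They were lower in the folding factors Fkbp11 (-1.29, SE 0.24, adjusted p = 0.000308) and Txndc5 (-0.49, SE 0.12, adjusted p = 0.00216). Several of these genes are not particular to plasma cells, among them Sdc1, which epithelial cells also express and which held at least 41.6 CPM in each control.

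Factors that attract or sustain B cells were higher in treated tumours. Of 6 tested of 7, all 6 were higher than in controls in stable tumours and in responders, and 5 in non-responders. Cxcl13, the chemokine that draws B cells into follicles, averaged 0.762 CPM in controls. It averaged 3.32 CPM in non-responders, 5.29 CPM in stable tumours and 1.91 CPM in responders, and was lower in responders than in stable tumours (-1.44, SE 0.52, adjusted p = 0.0335). Tnfsf13b, which encodes BAFF, was higher than in controls by 2.91 in stable tumours (SE 0.30, adjusted p = 6.48e-07), and its responder minus non-responder difference was 0.72 (SE 0.25, adjusted p = 0.0194). Il21, a T cell cytokine that promotes plasma cell formation, had 2 counts over all controls against 42 over non-responders, 72 over stable tumours and 103 over responders. Its responder minus non-responder difference was 1.57 (SE 0.58, adjusted p = 0.029).

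Of the germinal centre genes, 3 of 6 were tested (Bcl6, S1pr2 and Gcsam), and all 3 were higher in stable tumours than in controls. Bcl6, which other cells express too, rose in responder minus non-responder by 0.98 (SE 0.20, adjusted p = 0.000533), while S1pr2 fell (-0.29, SE 0.12, adjusted p = 0.0416). In responders against controls 1 of the 3 was called higher.

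Markers of other cells also differed between groups, though not always as the members did. The 9 T cell markers were each called higher than in controls in all 3 treated groups, and their summed level was 11.0 to 36.0 CPM in controls. In treated tumours it was 29.8 to 262 CPM for non-responders, 191 to 283 CPM for stable tumours and 122 to 324 CPM for responders. Responders 1, 3 and 4, whose plasma cell genes lay within the range of the controls, held 122, 138 and 136 CPM of T cell markers, above every control. Macrophage markers summed to a median of 543 CPM in controls, 1047 CPM in non-responders, 2158 CPM in stable tumours and 963 CPM in responders, and 5 of 6 were called lower in responders than in stable tumours. Markers listed for plasmacytoid dendritic cells, which have a secretory machinery like that of plasma cells, summed to 347 to 422 CPM in controls. Their range was 366 to 552 CPM in non-responders, 343 to 417 CPM in stable tumours and 238 to 389 CPM in responders. Most of that sum was Tcf4, which other cells express widely and which was lower in stable tumours than in controls (-0.52, SE 0.17, adjusted p = 0.0166), and Bst2. In stable tumours against controls, 4 of the 7 were called higher and 1 lower. Siglech, Ccr9 and Pacsin1 averaged 0.65, 0.249 and 0.682 CPM in controls and 1.97, 1.61 and 2.56 CPM in stable tumours, all 3 among those called higher, as they were in responders.

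Melanocytic markers summed to 10500 to 17110 CPM in controls and 723 to 13870 CPM in non-responders. They summed to 228 to 504 CPM in stable tumours and 303 to 723 CPM in responders. All 7 were called lower than in controls in stable tumours and in responders. Of the 4 markers of lymph node vessels and stroma, summing to a median of 0.133 CPM in controls and 2.63 CPM in stable tumours, Ccl19 was the single one tested. This chemokine of lymphoid stroma had 15 counts over controls, 164 over non-responders, 289 over stable tumours and 170 over responders. It was higher than in controls by 4.40 in stable tumours (adjusted p = 0.00454) and by 3.55 in responders (adjusted p = 0.00948). Glycam1 had no count in controls and at most 5 in any group, and Chst4 had 0 counts in controls and 3 to 32 in each treated group, most of them in stable tumours. The part of these other cells, and of included lymphoid tissue, in the levels of the members was not tested.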

How the data were processed

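RNA from 25 tumours was sequenced, 1 library each. The authors deposited expected counts per gene, not normalized, and a table of RPKM values for 19522 symbols. Per the submitters' processing notes, bcl2fastq 2.17, Trimmomatic, STAR 2.5.1 and RSEM 1.2.22 were used with mm10; what gene lengths and denominator the RPKM values rest on is not stated in those sources. The labels name a stranded total RNA kit but polyA RNA as the molecule, which was not resolved. Whole counts had been assumed when tests were planned; 5.64% of values were not whole, and all were rounded. Replicates were numbered in record order.

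Counts were fitted with edgeR 4.0.16 (R 4.3.3; TMM, filterByExpr by group, robust quasi-likelihood F tests, two-sided, 4 group means over 25 tumours, 18031 genes tested, Benjamini-Hochberg adjustment). SE was the fold change over the square root of F. Alternatives were RLE size factors, DESeq2 1.42.0, other filters, only the groups compared, a protein-coding share covariate, fewer gene types, limma 3.58.1 on log2(RPKM + 1) or log2(RPKM + 0.1), each tumour left out and, added after seeing the data, responders 1 and 4 left out. The RPKM table held 5 members, not Ighm, Igkc or Jchain. The test was checked on simulated counts.

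The members and gene lists were chosen with earlier results of these data known. From each other list, up to 4 called genes of largest fold change and at least 0.1 CPM were eligible for naming, and any gene of lists of 7 or fewer; genes chosen after their values were seen are Sdc1 and the single subclasses of heavy chains. Some genes of these lists enter the counts and are not reported here by name.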

Additional observations from a re-analysis of the deposited data

Results flagged for a closer look

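In 40 groups of values examined, 3 had a tumour far from the rest of its group, by a rule set to flag about 1 in 20 by chance. That rate was not measured here, and the groups are not independent, since genes share tumours. Responder 6 held 5.005 CPM of Ms4a1, and the next responder 1.57 CPM. The same tumour held 6.233 CPM of Pax5, against 0.952 CPM in the next. Both are B cell genes, and the tumour also had the highest Cd79a of the 25, 4.44 CPM. Its Cd79b, 6.705 CPM, was not the highest, with 7.73 CPM in responder 5 and 9.19 CPM in non-responder 5. Control 3 held 6.806 CPM of Jchain, and the next control 2.23 CPM. Control 3 was also the highest control in Igkc (25.9 CPM) and Ighm (56.8 CPM). Its Cd79a, 0.0782 CPM, was low among controls, but its Ms4a1, 0.196 CPM, was below control 5 only.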

How the results depend on the processing

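No paired analysis was possible because the labels give no replicate numbers shared between groups. Leaving out each tumour gave 0 to 1 members called for responder minus non-responder, 1 to 2 for responder minus stable, 0 to 2 for stable minus non-responder, 6 to 8 for responder minus control, 7 to 8 for stable minus control, 1 to 4 for non-responder minus control and 8 to 8 for all anti-CTLA-4 minus control. Limma on RPKM, over 5 members, called 1 for responder minus non-responder, 0 for responder minus stable, 0 for stable minus non-responder and 1 for non-responder minus control. With a pseudocount of 1 and the filter, it called 47.1%, 34.7%, 19.3% and 13.4% of all genes in these comparisons. In each comparison between treated groups, 1 of its 5 members had an unadjusted p under 0.05. Against controls limma called 3 in responders (4 with a pseudocount of 0.1, 2 with no filter), 4 in stable tumours and 4 in all treated tumours. With a pseudocount of 1 and the filter, it called 61.8%, 42.7% and 48.7% of all genes there. The stricter filter tested 4 members and called 3, 4, 3 and 4 of them for responders, stable tumours, non-responders and all treated tumours against controls. It called 68.4%, 47.9%, 17.5% and 56.2% of all genes in these comparisons. With no low-count filter, stable minus non-responder fell to 0 members (3 under an unadjusted p of 0.05) and non-responder minus control to 1, against 5.78% and 5.86% of all genes called. Only the groups compared gave 3 for stable minus non-responder and 3 of 5 tested for non-responder minus control, against 12.4% and 9.41% of all genes called. This setting is the same fit for all anti-CTLA-4 minus control and was not run. DESeq2 called 1 for responder minus non-responder, 3 for stable minus non-responder and 4 for non-responder minus control, against 52.2%, 19.5% and 18.1% of all genes. The covariate, which varied widely only in responders, gave 0 for responder minus stable (1 under an unadjusted p of 0.05) and 4 for non-responder minus control. In the latter it called 16.0% of all genes. Fewer gene types gave 3 for non-responder minus control (16.5% of all genes called), as did leaving out responders 1 and 4 (14.6%). The latter gave 1 for responder minus non-responder, against 39.5% of all genes. Over all genes, the covariate called 1810 against 8823 for responder minus non-responder and 0 against 6891 for responder minus stable, without responders 1 and 4 the latter was 4018, and only the groups compared called 1559 against 2500 for non-responder minus control. Leaving 1 tumour out gave 1470 to 3804 genes for stable minus non-responder and 1570 to 4237 for non-responder minus control. It gave 7255 to 10052 for responder minus non-responder and 5131 to 8862 for responder minus stable. The ranges were 10978 to 12223 for responder minus control, 6657 to 8116 for stable minus control and 7697 to 10146 for all anti-CTLA-4 minus control.

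Signs turned only in differences that were not called. In responder minus non-responder, Ms4a1 ranged from -0.00416 (without responder 6) to 1.18 with 1 tumour left out, Cd79b was 0.184 and Ighm 0.761 with the covariate, and Ighm 0.0738 without responders 1 and 4. In responder minus stable with the covariate, Ms4a1 was 0.53, Cd79b 0.0855, Igkc 0.23 and Mzb1 1.06. With 1 tumour left out, Cd79a ranged from -0.405 (without responder 6, and below 0 without responder 7 too) to 0.287, Pax5 from -0.444 (without responder 6) to 0.829, and Mzb1 from -0.731 to 0.242 (without stable tumour 2, and above 0 without responder 1, 3 or 4 too). Mzb1 was 0.211 without responders 1 and 4. In stable minus non-responder, Cd79b ranged from -0.00922 (without non-responder 3) to 0.323 and Pax5 -0.00471 by limma on log2(RPKM + 1).

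The balance on RPKM, with Mzb1 as its only plasma cell gene, differed by 0.50 for stable minus control, 0.28 for all anti-CTLA-4 minus control and -0.0892 for non-responder minus control, against 2.01, 1.43 and 1.04. Medians over genes gave -0.49 for responder minus non-responder against 0.21. Leaving out each tumour gave -0.09 to 0.56 for responder minus non-responder, -1.12 to -0.42 for responder minus stable, 0.77 to 1.34 for stable minus non-responder, 0.94 to 1.68 for responder minus control, 1.71 to 2.44 for stable minus control, 0.73 to 1.46 for non-responder minus control and 1.13 to 1.86 for all anti-CTLA-4 minus control. Depth limits Ms4a1, Mzb1 and Pax5 most, with 17, 23 and 27 counts over all controls. The cause of these changes was not tested.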

Other observations

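The counts and RPKM values of Mzb1 did not agree at low levels. Control 5 had 0 counts but 0.477 RPKM, non-responder 3 had 0 counts but 0.286 RPKM, and responders 1 and 4 had 0 counts but 0.177 and 0.233 RPKM. Cd79a in responder 1 had 2 counts and 1.31 RPKM, above the 0.471 RPKM of control 5 with 13 counts. For Pax5, control 5 had 7 counts and non-responder 4 had 6 counts, but both had 0 RPKM. The cause was not tested.

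Immunoglobulin variable-region segments were summed per M counts of the whole library, without the TMM scaling of the CPM values above. The sum averaged 11.1 in controls (SD 10.5, n = 5) and 60.6 in non-responders (SD 22.3, n = 6). It averaged 235 in stable tumours (SD 159, n = 6) and 134 in responders (SD 142, n = 8). TMM factors ran from 0.339 in responder 1 to 1.19 in non-responder 2, so these sums cannot be set against the CPM values. The ratio of Ighm to Igkc, on the log2 scale, averaged 1.51 in controls (SD 0.74), 0.01 in non-responders (SD 0.82), -0.03 in stable tumours (SD 1.18) and -0.76 in responders (SD 1.49). That of Jchain to Igkc varied less between groups, from -1.62 in responders (SD 0.58) to -1.46 in stable tumours (SD 0.38).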
